A study of Mus musculus with 4 samples.

Results

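The measurements concern 9 genes of fibroblast growth factor (FGF) signalling, the ligands Fgf1, Fgf7, Fgf9, Fgf10 and Fgf18 and the receptors Fgfr1, Fgfr2, Fgfr3 and Fgfr4. They were taken by gene symbol from the 32285 genes of the count matrices, and all 9 were present. The study asked what Myrf, a membrane-bound transcription factor, does in the mesothelium, the sheet of cells on the lung surface. Mutant mouse embryos carried Wt1creERT2, a Cre recombinase made from the Wt1 gene that works only after tamoxifen, Myrf Fl/Fl, a pair of alleles that Cre removes, and an R26 tdTomato reporter that marks recombined cells and their descendants. Control embryos carried the Cre and the reporter. Their Myrf alleles are not given in the labels, although the cross is written with Myrf Fl/Fl on both sides. Dams of both groups received tamoxifen on embryonic day E12.5, and the lungs of both were taken at E16.5. A pool held the lungs of 3 to 5 embryos of a genotype, tdTomato-positive, DAPI-negative cells were sorted, and transcript 3' ends were counted in single cells by droplet sequencing. Each genotype had 2 libraries, and the labels do not say that these came from separate pools, so p-values measure only the spread between these libraries, which may be technical.

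FGF ligands are secreted proteins that bind heparan sulfate and activate receptor tyrosine kinases at the surface of neighbouring cells. In the embryonic mouse lung, Fgf9 is made by mesothelium and airway epithelium and acts on mesenchyme, where it supports proliferation and holds back smooth muscle differentiation. Fgf10 is made by mesenchyme and acts on the epithelial form of Fgfr2 to drive the outgrowth of airway buds.

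The libraries differed in size. After filtering, mutant libraries 1 and 2 held 411 and 4275 cells, and control libraries 1 and 2 held 281 and 3503 cells. Unique molecular identifiers (UMIs), which count captured transcripts, summed to 20954282 and 80755665 in the mutant libraries and to 8175944 and 58045818 in the control libraries. The median cell had 38719 and 15957 UMIs in mutants, against 29175 and 14322 in controls, so the libraries numbered 1 were the smaller and the more deeply sequenced per cell. No pair of libraries shared more than 5 barcodes. Myrf itself stood at 19.1 and 7.22 CPM (UMIs of a gene scaled to the same UMI total in every library or cluster) in mutants, against 76.0 and 48.5 CPM in controls. The floxed exons are not given in the sources used here, so this level does not check the deletion. The labels call the sorted cells mesothelial, and the 13 mesothelial markers summed to 455 and 171 CPM in mutants, against 2589 and 1982 CPM in controls, with 12 and 13 of the markers detected in mutants (Muc16 had no UMI in mutant library 1) and all 13 in both controls.

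Cells were grouped into 14 clusters without use of the 9 genes. Clusters 5 and 12 were mesothelial-like by their markers and held 3 and 4 cells of mutant libraries 1 and 2, against 112 and 736 cells of control libraries 1 and 2. Cluster 3, led by the muscle intermediate filament gene Des, and cluster 8, led by the muscle genes Actc1 and Tnnt2, were smooth muscle-like. Together they held 271 and 1542 mutant cells, against 2 and 25 control cells. Cluster 6, led by Crh and carrying Myh11 and Acta2, was smooth muscle-like as well. It held 27 and 311 mutant cells, against 22 and 165 control cells. In mutants Wt1 stood at 34.6 and 33.0 CPM in cluster 3, against 2.93 and 0.199 CPM in cluster 6. Mesothelial-like cells of controls reached 150 and 152 CPM of Wt1. Clusters 3 and 8 held 95.2 and 86.7% of the Wt1 UMIs of mutant libraries 1 and 2. Cluster 3 also had 1 of the 13 mesothelial markers, Msln, above the other clusters. Cluster 1 (leading genes Smim41, Slc38a5 and Tcf21) and cluster 4 (Lef1 and Pdgfra) had too few of the marker genes to be named. Cluster 11 was fibroblast-like, cluster 13 pericyte-like, and clusters 9, 10 and 14 were epithelial-like, endothelial-like and immune-like. Clusters 2 and 7 also had mesothelial markers above the other clusters, 6 and 11 of the 13, and in control library 2 Upk3b was seen in 98.0 and 97.4% of their cells. They are called mixed here, and kept apart from the mesothelial-like cells, because most markers of all types lay near the level of the rest of their library, a rule set with the data known. By marker counts alone they would be mesothelial-like. Mixed barcodes were 0 and 3 cells of mutant libraries 1 and 2, against 16 of the 281 cells of control library 1 and 2059 of the 3503 of control library 2. Mesothelial RNA was also seen outside the mesothelial-like cells of controls, and whether it was free RNA was not tested. The mesothelial surface gene Upk3b stood at 0 and 0.162 CPM in cluster 1 of the mutants, against 4.26 and 22.6 CPM in cluster 1 of the controls, where mesothelial-like cells reached 1835 and 1518 CPM.

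Fgf9 (ENSMUSG00000021974, mm10 chromosome 14, 58070547 to 58112720, plus strand, protein-coding) was the member with the clearest difference between genotypes. Over all sorted cells it stood at 15.7 and 7.60 CPM in mutant libraries 1 and 2, against 105 and 77.9 CPM in control libraries 1 and 2. Both mutant libraries lay below both controls. Fgf9 fell by 2.94 ± 0.33 on the log2 scale (SE, n = 2 libraries per group; edgeR quasi-likelihood, Benjamini-Hochberg adjusted p = 0.0399). It was the one member called, and it lay among the 58 of 16246 tested genes (0.357%) that were called, 55 of them lower (0.339%) and 3 higher (0.0185%). The call held in all 14 alternative fits of all sorted cells, with adjusted p-values between 4.05e-13 (DESeq2) and 0.0492 (edgeR with mixed barcodes left out). In such sums, fewer cells of a type and less RNA per cell cannot be told apart, and the levels by cluster bear on that.

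The cells that held Fgf9 RNA differed between the genotypes. In controls, mesothelial-like cells were its main source, holding 804 of 857 Fgf9 UMIs (93.8%) in control library 1 and 2649 of 4523 (58.6%) in control library 2. Mixed barcodes, which have mesothelial markers too, held a further 40.1% in control library 2, at 69.6 CPM in cluster 2 and 82.7 CPM in cluster 7. The level in mesothelial-like cells was 197 CPM (95% exact Poisson interval 183 to 211) and 168 CPM (162 to 175) in control libraries 1 and 2. Few mutant cells were of this kind. The 3 cells of mutant library 1 gave 16 Fgf9 UMIs, or 83.7 CPM (47.9 to 136), and the 4 cells of mutant library 2 gave 12 UMIs, or 167 CPM (86.4 to 292). Intervals cover counting error only. One of the 3 cells of mutant library 1 was of cluster 12, where Fgf9 was lower also in controls, at 54.0 CPM in that cell, against 62.0 and 69.6 CPM in control libraries 1 and 2. In cluster 5 alone, mutant libraries 1 and 2 stood at 125 CPM (59.97 to 230.003) and 167 CPM (86.4 to 292), against 207 CPM (193 to 222) and 180 CPM (173 to 187) in controls. Both mutant intervals spanned both control levels, and so few cells allow no comparison beyond these counts.

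In mutants, clusters 3 and 8 were the main source of Fgf9, with 266 of 328 (81.1%) and 561 of 614 (91.4%) of the UMIs of mutant libraries 1 and 2. The same clusters held 0.233 and 0.155% of Fgf9 UMIs in control libraries 1 and 2. Their level was far below that of control mesothelial-like cells. Cluster 3 stood at 18.2 CPM (16.05 to 20.7) and 19.0 CPM (17.4 to 20.8) in mutant libraries 1 and 2, and the few control cells of that cluster, 2 and 20, gave 2 and 5 UMIs. Cluster 8 stood at 20.8 and 12.7 CPM in mutants and held no cell of control library 1 and 5 cells of control library 2. The epithelial-like cells, the other known source, stood at 22.4 and 15.2 CPM in mutants, against 0 and 13.3 CPM in controls. The value of 0 came from 21 shallow cells, for which 3 counts would give 19.7 CPM. Cluster 1 was close to empty of Fgf9, with 0 and 0 UMIs in mutants and 2 and 6 UMIs in controls. The order of levels was therefore mesothelial-like cells first, then the mixed barcodes of controls, then clusters 3, 8 and 9, which did not differ beyond the spread of their libraries, and then clusters 6, 1 and 4 at 3.80 CPM or less in every library.

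Shares of cells with an Fgf9 UMI were taken after every cell was thinned to 5000 UMIs. They fell from mesothelial-like cells of controls to cluster 3 of mutants and then cluster 1, and thinned shares of other clusters are not given. In cluster 3 of mutants, 6.33% (15 of 237 cells) and 7.79% (99 of 1271) had a UMI, with exact binomial intervals of 3.59 to 10.2% and 6.38 to 9.40%. In mesothelial-like cells of controls, 46.4% (52 of 112) and 49.9% (356 of 713) had one, with intervals of 37.0 to 56.1% and 46.2 to 53.7%. In cluster 1 of mutants, the thinned counts were 0 of 28 and 0 of 1409 cells, where 3 cells would give 10.7 and 0.213%. In cluster 1 of controls they were 0 of 42 and 0 of 214 cells, where 3 cells would give 7.14 and 1.40%. Without thinning, 34.8 and 19.4% of cluster 3 cells in mutants and 90.2 and 83.7% of mesothelial-like cells in controls had an Fgf9 UMI. Median depths there were 44124 and 15272 UMIs in mutants, and 35198 and 19958 UMIs in controls. At equal depth the mutant libraries lay close to each other, as did the controls.

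**Figure D1:**
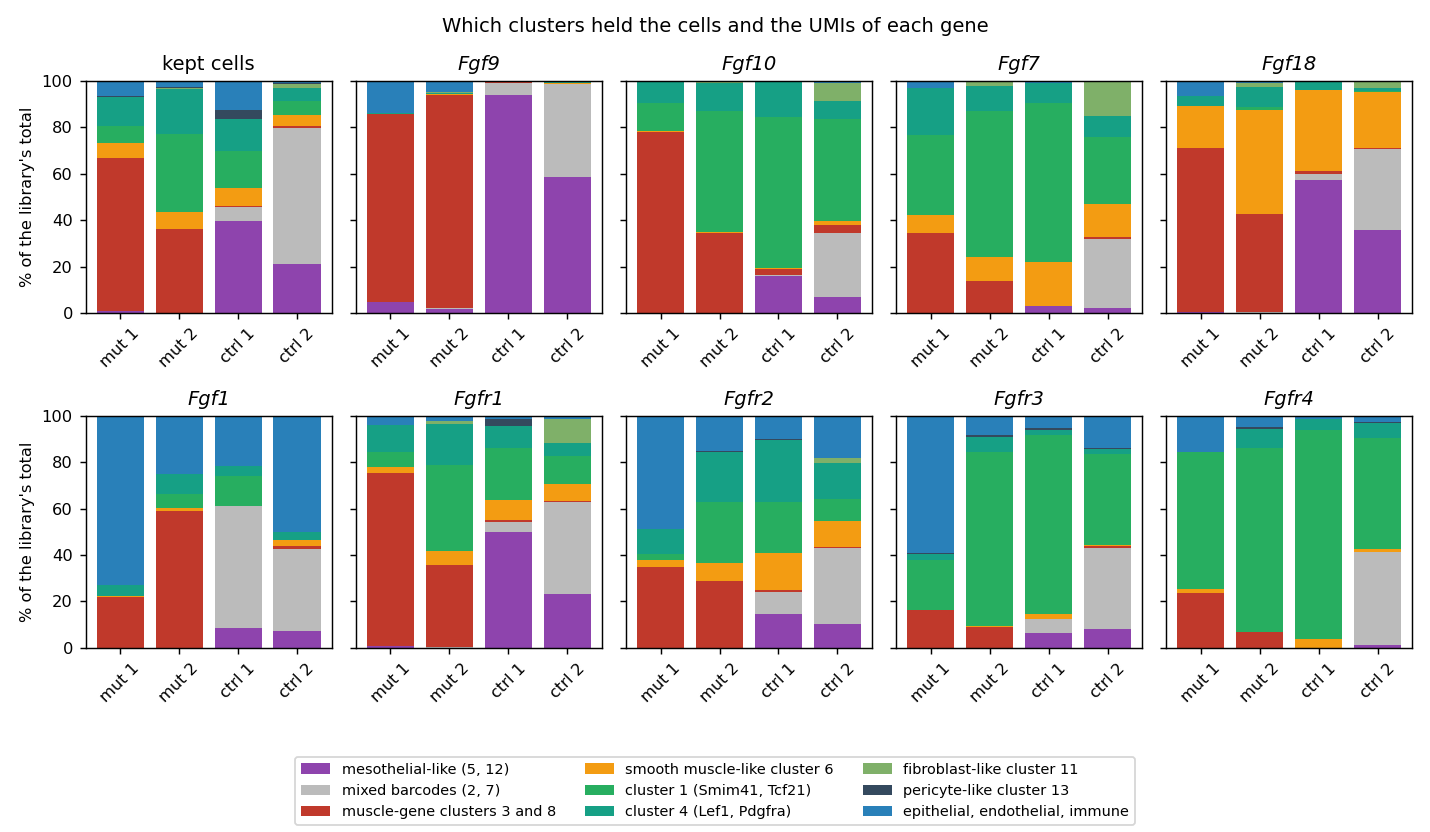
Stacked bars give the percent of each library's kept cells (first panel) and of each library's UMIs of a gene (other panels) that lay in each group of clusters (colours), with mutant libraries 1 and 2 left of control libraries 1 and 2. Fgf9 UMIs lay in clusters 3 and 8 in mutants (81.1 and 91.4%) and in mesothelial-like cells in controls (93.8 and 58.6%), with 40.1% in mixed barcodes of control library 2.

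Since Myrf is a transcription factor, the sequence just before the RefSeq start is shown for 3 ligands. They are Fgf9, called over all sorted cells, Fgf18, called in mesenchymal-like cells (given further on), and Fgf10, the ligand of bud outgrowth. The sequence of Fgf7, called in mesenchymal-like cells too, was searched but is not printed. The windows are the 250 bases before the RefSeq start (GRCm38.p6) of Fgf9 (chr14:58072436-58072685, plus strand), Fgf10 (chr13:118714449-118714698, plus strand) and Fgf18 (chr11:33147401-33147650, minus strand), written 5' to 3' on the gene's strand. No capitals appear because neither of the searched words was found.
Fgf9: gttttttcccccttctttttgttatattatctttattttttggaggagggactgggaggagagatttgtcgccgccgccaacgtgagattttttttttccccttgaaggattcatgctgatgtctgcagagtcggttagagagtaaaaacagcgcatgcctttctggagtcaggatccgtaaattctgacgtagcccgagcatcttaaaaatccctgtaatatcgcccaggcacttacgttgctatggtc
Fgf10: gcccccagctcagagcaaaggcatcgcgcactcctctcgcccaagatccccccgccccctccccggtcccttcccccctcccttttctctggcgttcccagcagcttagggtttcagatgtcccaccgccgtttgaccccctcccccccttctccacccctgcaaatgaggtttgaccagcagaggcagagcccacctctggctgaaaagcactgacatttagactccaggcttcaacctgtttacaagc
Fgf18: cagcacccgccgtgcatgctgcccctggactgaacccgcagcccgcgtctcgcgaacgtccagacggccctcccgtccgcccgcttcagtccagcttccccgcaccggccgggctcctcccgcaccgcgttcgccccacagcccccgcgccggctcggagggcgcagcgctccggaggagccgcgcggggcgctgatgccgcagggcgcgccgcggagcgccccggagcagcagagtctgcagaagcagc
The words were CTGGCAC and CTGGTAC, known binding words of Myrf, searched on both strands (GTGCCAG and GTACCAG on the other). None of the 7 members that have a window held a match, and 1947 of all 32851 RefSeq windows of this length (5.93%) held one. No match says only that these letters are not in these windows. The windows differed in base composition, with 44.8% G and C for Fgf9, 61.2% for Fgf10 and 77.2% for Fgf18, beside a median of 52.4% over all windows. None of the 3 windows shown overlapped an exon of the GENCODE vM21 annotation. The windows of Fgf9 and Fgf10 lay inside the annotated genes, which start further upstream, at 58070547 and 118669791. Sequence before those earlier starts was not searched.

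Fgf10 (ENSMUSG00000021732, chromosome 13, 118669791 to 118792115, plus strand) had the opposite direction to Fgf9 over all sorted cells, but its difference did not pass the test. It stood at 28.5 and 31.9 CPM in mutants, against 20.7 and 14.4 CPM in controls, so both mutant libraries lay above both controls. The log2 change was 0.90 ± 0.27 (SE; edgeR adjusted p = 0.341). It passed when mutant library 1 was left out (log2 change 1.12, edgeR adjusted p = 0.00683), where the lone mutant library is assumed to vary like the controls.

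Fgf10 RNA came from cluster 1 in both genotypes and from cluster 3 in mutants. Among the clusters with at least 20 cells in every library its level was highest in cluster 1, at 89.0 CPM (69.7 to 112) and 54.5 CPM (51.7 to 57.5) in mutants, against 78.0 CPM (64.1 to 94.0) and 80.0 CPM (72.0 to 88.6) in controls. The genotypes overlapped, and the log2 change within cluster 1 was -0.12 ± 0.28 (edgeR adjusted p = 0.9997). After thinning to 5000 UMIs, 32.1% (9 of 28) and 22.4% (316 of 1409) of cluster 1 cells in mutants had an Fgf10 UMI, against 21.4% (9 of 42) and 35.5% (76 of 214) in controls. Cluster 6, with median depths of 25142 and 14780 UMIs in mutants and 27637 and 19718 UMIs in controls, gave 0 of 26 and 2 of 303 thinned cells in mutants, against 0 of 21 and 2 of 162 in controls. The unthinned shares in cluster 1 were 53.3 and 47.1% in mutants, against 72.7 and 65.2% in controls, at median depths of 27513 and 15678 UMIs in mutants and 31968 and 18831 UMIs in controls.

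Cluster 3 stood at 33.3 CPM (30.3 to 36.5) and 30.9 CPM (28.8 to 33.1) in mutants, while its 2 and 20 control cells gave 4 and 17 UMIs, or 75.3 CPM (20.5 to 193) and 53.9 CPM (31.4 to 86.2). Cluster 4 stood lower, at 23.9 and 19.0 CPM in mutants, against 24.7 and 11.9 CPM in controls. Mesothelial-like cells of controls had 6.60 and 3.75 CPM. The fibroblast-like cluster 11 had 68.0 CPM in 14 cells of mutant library 2, against 40.2 CPM in 67 cells of control library 2, and no cell of the libraries numbered 1.

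Shares of Fgf10 UMIs stand beside shares of cells here. Clusters 3 and 8 held 78.1 and 34.6% of Fgf10 UMIs in mutants, against 2.37 and 3.60% in controls, and they held 65.9 and 36.1% of mutant cells, against 0.712 and 0.714% of control cells. Cluster 1 held 12.04 and 52.3% of Fgf10 UMIs in mutants, against 65.1 and 44.1% in controls. With mixed barcodes left out, the Fgf10 change over all sorted cells was 0.76 ± 0.24.

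**Figure D2:**
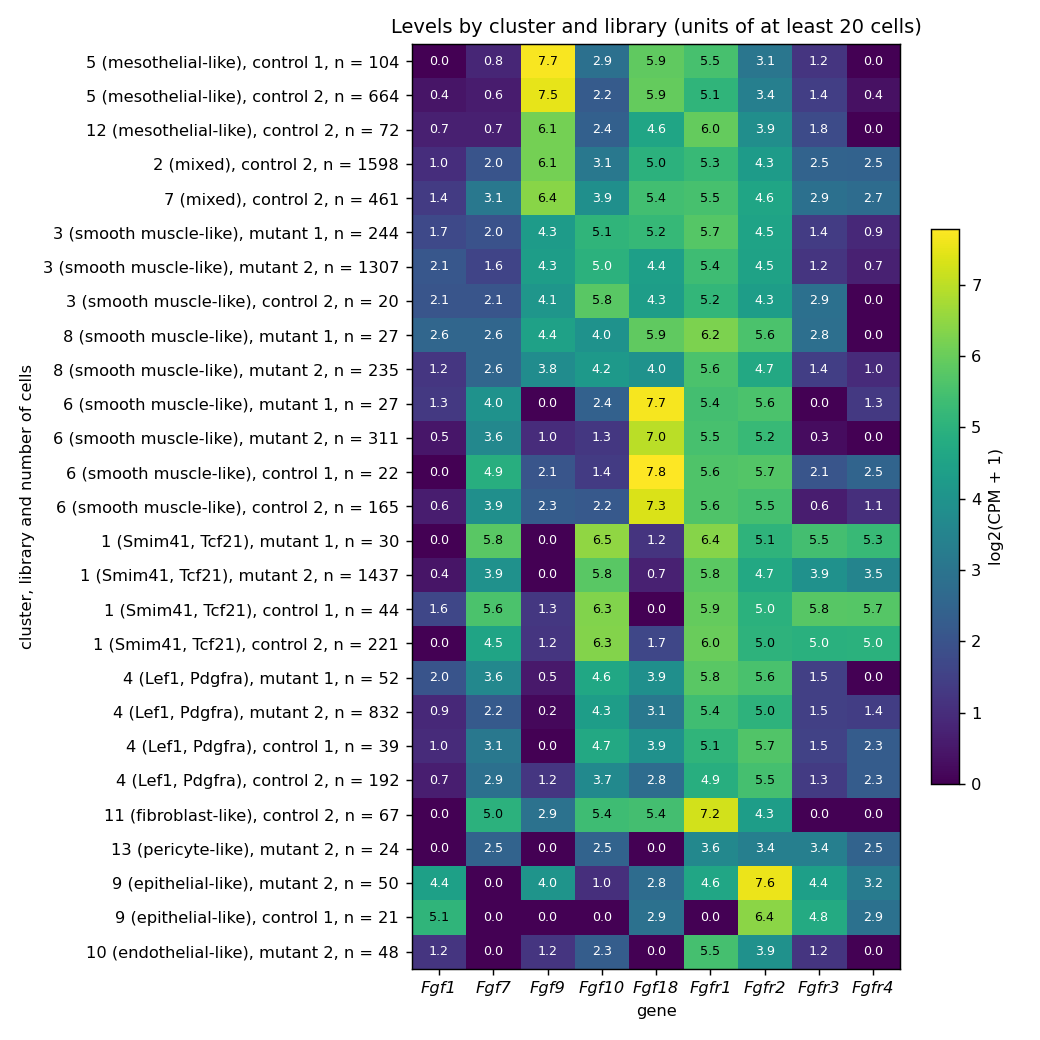
Rows are clusters in 1 library with at least 20 cells (n is the number of cells) and columns are the 9 genes; colour and printed values give log2(CPM + 1). Fgf9 was highest in the rows of mesothelial-like cluster 5, Fgf10 in cluster 1, Fgf18 in cluster 6 and Fgfr2 in the epithelial-like rows, while Fgfr1 was spread over most rows.

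Fgf7 (ENSMUSG00000027208, chromosome 2, 126034658 to 126091185, plus strand), a mesenchymal ligand of the epithelial form of Fgfr2, did not separate the genotypes over all sorted cells. It stood at 6.11 and 6.97 CPM in mutants, against 11.7 and 6.10 CPM in controls. The ranges overlapped, and the log2 change was -0.30 ± 0.37 (SE; edgeR adjusted p = 0.980). In cluster 1 it stood at 54.4 and 14.3 CPM in mutants, against 46.8 and 22.2 CPM in controls, so that the libraries numbered 1 were high in both genotypes. In cluster 6 it was 14.6 and 11.5 CPM in mutants, against 28.4 and 13.6 CPM in controls. The fibroblast-like cluster 11 had 53.5 CPM in mutant library 2, against 31.2 CPM in control library 2. Cluster 3 was low in Fgf7, at 2.93 and 2.04 CPM in mutants. Fgf7 lies on the strand opposite Fam227b, and since the use of strand is not stated, reads of that gene could be counted with it.

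Fgf18 (ENSMUSG00000057967, chromosome 11, 33117430 to 33147400, minus strand), a ligand with known roles in lung mesenchyme and cartilage, stood at 36.2 and 17.5 CPM over all sorted cells of mutants, against 48.7 and 42.2 CPM in controls. Both mutant libraries lay below both controls. The log2 change was -0.74 ± 0.30 and did not pass (SE; edgeR adjusted p = 0.565), although it passed without mutant library 1 (log2 change -1.15, edgeR adjusted p = 0.0131).

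The cells that held Fgf18 RNA were of several kinds. The Myh11-positive cluster 6 had the highest level, at 202 CPM (170 to 239) and 125 CPM (115 to 135) in mutants, against 219 CPM (184 to 259) and 161 CPM (148 to 174) in controls. These overlapped between the genotypes, with a log2 change of -0.14 ± 0.33 (SE; edgeR adjusted p = 0.99998). Mesothelial-like cells of controls stood at 55.7 and 56.0 CPM and held 57.3 and 36.0% of Fgf18 UMIs there. In mutants, where these cells were nearly missing, cluster 3 held 64.4 and 37.1% of Fgf18 UMIs at 35.8 and 20.2 CPM. Cluster 1 was close to empty of Fgf18, at 1.24 and 0.647 CPM in mutants, against 0 and 2.17 CPM in controls. The fibroblast-like cluster 11 had 117 CPM in mutant library 2, against 42.6 CPM in control library 2.

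Fgf1 (ENSMUSG00000036585, chromosome 18, 38838673 to 38929472, minus strand), a ligand that can bind all FGF receptors, rested on few counts. It stood at 7.64 and 1.97 CPM in mutants, against 2.81 and 1.41 CPM in controls, from 160 and 159 UMIs in mutants and 23 and 82 UMIs in controls. Mutant library 1 was high and mutant library 2 lay between the controls, and the log2 change was 1.24 ± 0.65 (SE; edgeR adjusted p = 0.774). Its level was highest in epithelial-like cells, at 62.4 and 20.5 CPM in mutants, against 32.8 and 36.2 CPM in controls, and they held 73.1 and 24.5% of Fgf1 UMIs in mutants, against 21.7 and 50% in controls. In mutant library 2 most Fgf1 UMIs, 87 of 159 (54.7%), lay in cluster 3 at 3.35 CPM, and in control library 1 most, 12 of 23 (52.2%), lay in the 13 barcodes of mixed cluster 7. Without epithelial, endothelial and immune cells the log2 change was 0.57 ± 0.61. The 10 epithelial markers, all detected in each library, summed to 1959 and 783 CPM over all cells of mutants, against 142 and 770 CPM in controls. Fgf1 lies opposite Arhgap26, and the use of strand is not stated.

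**Figure D3:**
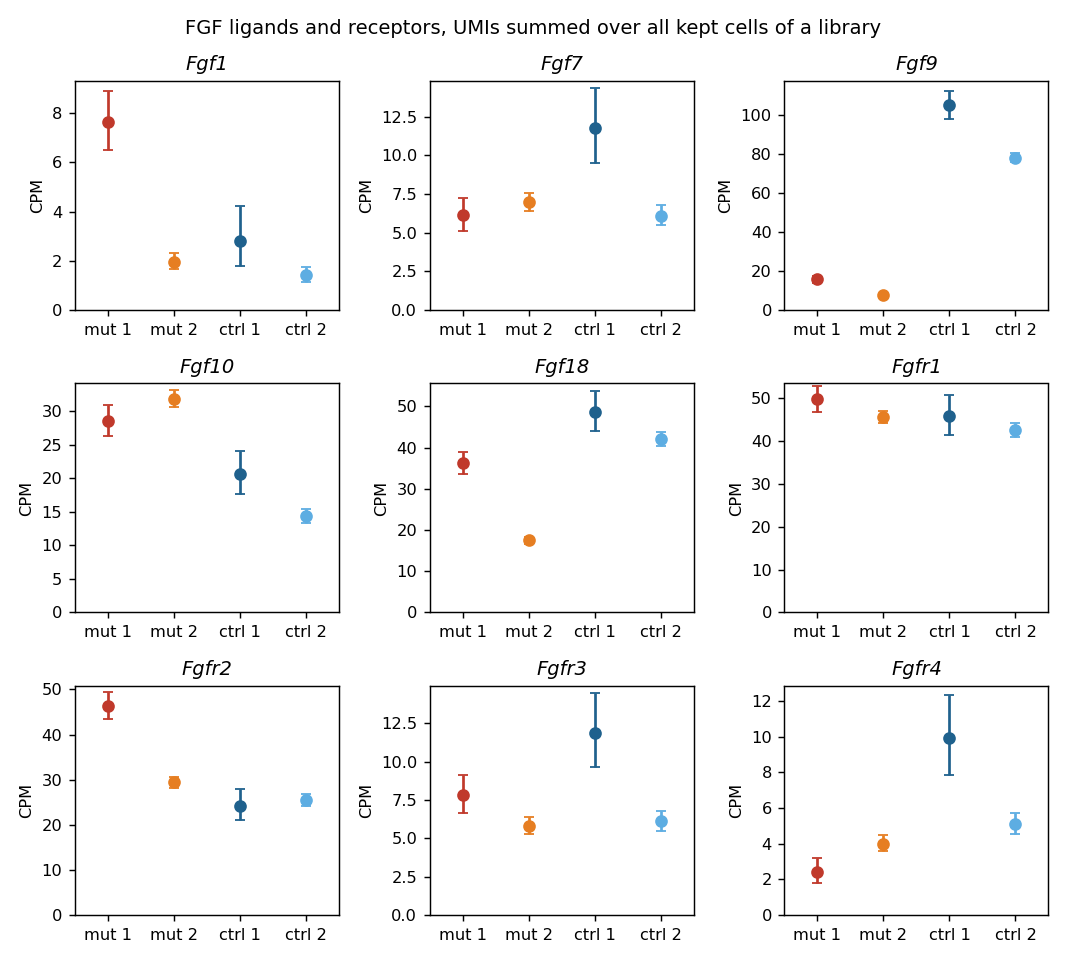
Each panel shows 1 gene, with CPM over all kept cells of mutant libraries 1 and 2 (left) and control libraries 1 and 2 (right); bars are exact Poisson 95% intervals, which cover counting error only, and axes start at 0. Fgf9 (15.7 and 7.60 against 105 and 77.9 CPM), Fgf18 and Fgfr4 were lower in each mutant library than in each control library, and Fgf10 and Fgfr2 were higher.

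None of the receptors was called over all sorted cells. Fgfr1 (ENSMUSG00000031565, chromosome 8, 25513654 to 25575718, plus strand), whose mesenchymal form is a known receptor of Fgf9, stood at 49.7 and 45.6 CPM in mutants, against 45.9 and 42.5 CPM in controls. The ranges overlapped, with a log2 change of 0.18 ± 0.22 (SE; edgeR adjusted p = 0.980). Counts of transcript 3' ends do not separate the epithelial and mesenchymal splice forms of Fgfr1, Fgfr2 and Fgfr3. Fgf9, Fgf10, Fgfr1 and Fgfr3 each overlap 1 gene on the other strand (Gm17109, Gm16263, Gm16159 and G630022F23Rik), so the same doubt about strand touches them. Fgfr1 was spread over nearly all clusters. Cluster 1 stood at 81.6 and 55.1 CPM in mutants, against 60.3 and 62.6 CPM in controls. Mesothelial-like cells of controls had 45.7 and 36.2 CPM, and cluster 3 of mutants had 52.3 and 40.6 CPM, so these did not differ beyond the spread between libraries. The highest level was in the fibroblast-like cluster 11, at 219 CPM (160 to 293) in mutant library 2, against 151 CPM (132 to 170) in control library 2.

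Fgfr2 (ENSMUSG00000030849, chromosome 7, 130162451 to 133123350, minus strand), the receptor of Fgf7 and Fgf10 on epithelium, stood at 46.3 and 29.4 CPM over all sorted cells of mutants, against 24.2 and 25.5 CPM in controls. Both mutant libraries lay above both controls, and the log2 change was 0.64 ± 0.25 (SE; edgeR adjusted p = 0.524). Without epithelial, endothelial and immune cells it was 0.33 ± 0.22. Epithelial-like cells had the highest level, at 239 CPM (218 to 263) and 186 CPM (168 to 207) in mutants, against 85.2 CPM (45.4 to 146) and 227 CPM (200.1 to 257) in controls, and they held 46.2 and 14.95% of Fgfr2 UMIs in mutants, against 6.57 and 17.4% in controls. They were 15 and 50 cells in mutants and 21 and 14 cells in controls.

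Outside the epithelial-like cells, Fgfr2 was higher in clusters 4 and 6 than in mesothelial-like cells or cluster 3. Cluster 4 stood at 46.1 and 32.0 CPM in mutants, against 50.3 and 44.2 CPM in controls, and cluster 6 at 46.9 and 37.0 CPM in mutants, against 50.4 and 43.7 CPM in controls. Mesothelial-like cells of controls were low, at 7.09 and 9.72 CPM, and cluster 3 of mutants stood at 21.8 and 21.2 CPM. The annotated Fgfr2 record spans 2960900 bases and overlaps 69 other genes, 33 of them on the opposite strand, so its counts may hold reads of those genes.

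Fgfr3 (ENSMUSG00000054252, chromosome 5, 33721674 to 33737068, plus strand) and Fgfr4 (ENSMUSG00000005320, chromosome 13, 55152640 to 55168759, plus strand) are receptors that act together in the forming alveoli of the postnatal mouse lung. Over all sorted cells, Fgfr3 stood at 7.83 and 5.82 CPM in mutants, against 11.9 and 6.10 CPM in controls, and its ranges overlapped only between mutant library 1 and control library 2. The log2 change was -0.29 ± 0.34 (SE; edgeR adjusted p = 0.980). Fgfr4 stood at 2.43 and 3.9997 CPM in mutants, against 9.91 and 5.12 CPM in controls. Both mutant libraries lay below both controls, with a log2 change of -1.04 ± 0.48 (SE; edgeR adjusted p = 0.661).

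Cluster 1 had the highest Fgfr4 level in every library, and Fgfr3 was high both there and in epithelial-like cells. Fgfr3 stood in cluster 1 at 43.3 CPM (30.1 to 60.2) and 14.3 CPM (12.8 to 15.8) in mutants, against 53.2 CPM (41.8 to 66.7) and 29.996 CPM (25.2 to 35.4) in controls. Fgfr4 stood there at 37.1 CPM (25.03 to 53.0) and 10.3 CPM (9.12 to 11.7) in mutants, against 51.8 CPM (40.6 to 65.1) and 30.6 CPM (25.8 to 36.1) in controls. In each genotype the library numbered 1 was high, and mutant library 2 was the lowest of the 4 for both genes. Cluster 1 held 58.8 and 79.3% of Fgfr4 UMIs in mutants, against 90.1 and 47.5% in controls. Cluster 1 held 21.3 and 75.1% of Fgfr3 UMIs in mutants, against 77.3 and 38.98% in controls. Epithelial-like cells stood at 48.5 and 19.96 CPM of Fgfr3 in mutants, against 26.2 and 40.6 CPM in controls, above cluster 1 in all libraries but control library 1. They held 55.5 and 8.09% of Fgfr3 UMIs in mutants, against 4.12 and 12.99% in controls. Their Fgfr4 was lower, at 4.27 and 8.41 CPM in mutants, against 6.56 and 7.07 CPM in controls. Mesothelial-like cells of controls had 1.47 and 1.78 CPM of Fgfr3 and 0 and 0.254 CPM of Fgfr4.

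Over all sorted cells, 5 of the 9 members had libraries that did not overlap between genotypes, Fgf10 and Fgfr2 above and Fgf9, Fgf18 and Fgfr4 below. Across all tested genes 30.4% did not overlap, 12.6% above and 17.8% below. The median log2 change of the members was -0.29, beside 0.03 over all 16246 genes.

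The next comparison took the mesenchymal-like cells together, although mutant cells came mostly from cluster 3, which controls nearly lacked. The class was clusters 3, 6, 8, 11 and 13, with 300 and 1891 mutant cells and 35 and 266 control cells. It left out clusters 1 and 4, which had too few fibroblast markers to be named (Tcf21 and Meox2, and Pdgfra and Lef1). Those 2 clusters held 54.7 and 73.4% of Fgf7 UMIs in mutants, against 77.1 and 38.1% in controls. Within the class, Fgf7 and Fgf18 were lower in mutants. Fgf7 stood at 3.55 and 4.07 CPM in mutants, against 21.6 and 17.7 CPM in controls, and fell by 2.22 ± 0.34 on the log2 scale (SE; edgeR adjusted p = 0.0366). Fgf18 stood at 44.3 and 34.0 CPM in mutants, against 173 and 113 CPM in controls, and fell by 1.76 ± 0.29 (SE; edgeR adjusted p = 0.0412). In both genes the mutant libraries lay below both controls. These 2 of 8 tested members were among the 59 of 13709 genes (0.430%) called lower, while 61 (0.445%) were called higher and none of those was a member.

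Different clusters made up this class in the genotypes. Cluster 3 gave 244 of 300 and 1307 of 1891 mutant cells, against 2 of 35 and 20 of 266 control cells. Cluster 8 gave 27 and 235 of the mutant cells, against 0 and 5 of the control cells. Cluster 6 gave 27 and 311 of the mutant cells, against 22 and 165 of the control cells. Fibroblast-like cluster 11 gave 0 and 14 of the mutant cells, against 0 and 67 of the control cells, and pericyte-like cluster 13 gave 2 and 24 of the mutant cells, against 11 and 9 of the control cells. In control library 2, cluster 11 held 52 Fgf7 UMIs and cluster 6 held 50, while cluster 11 held 71 Fgf18 UMIs and cluster 6 held 592. Cluster 11 was not tested alone, since the libraries numbered 1 held none of its cells. Within cluster 6 alone neither gene was called. Fgf7 had a log2 change of -0.46 ± 0.47 and Fgf18 of -0.14 ± 0.33 there (SE; edgeR adjusted p = 0.99998 for each). Both calls were lost with clusters 1 and 4 added to the class, an alternative chosen after seeing the data (log2 changes -1.48 and -0.69, edgeR adjusted p = 0.258 and 0.662), with doublets kept (edgeR adjusted p = 0.0661 and 0.0735) and with the members eligible for the clustering (edgeR adjusted p = 0.175 and 0.428). Fgf7 was lost also at equal cell numbers (edgeR adjusted p = 0.123) and Fgf18 at a finer clustering (edgeR adjusted p = 0.0646). With the members eligible and at the finer clustering, other cells entered the class (given further on).

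The other members tested in mesenchymal-like cells did not pass. Fgf9 stood at 17.5 and 15.4 CPM in mutants, against 4.80 and 5.56 CPM in controls, with a log2 change of 1.68 ± 0.34 (SE; edgeR adjusted p = 0.0691), the direction opposite to that over all sorted cells. The control values rested on 4 and 33 UMIs. It passed at a finer clustering (log2 change 2.17, edgeR adjusted p = 0.0286), without control library 1 (log2 change 1.61, edgeR adjusted p = 0.0180), without the low-count filter and with the replicate block. Fgf10 stood at 30.9 and 24.8 CPM in mutants, against 5.999 and 18.5 CPM in controls (log2 change 1.01 ± 0.40, edgeR adjusted p = 0.374). Its direction turned with clusters 1 and 4 added (-0.13), at a finer clustering (-0.79) and with the members eligible for the clustering (-0.49). Each of these settings also changed which cells the class held. Fgf1 rested on 0 and 3 UMIs in controls (log2 change 2.59 ± 0.84, edgeR adjusted p = 0.247). For Fgfr1, Fgfr2 and Fgfr3 the changes were -0.40, -0.52 and -0.07 on the log2 scale (edgeR adjusted p between 0.526 and 0.993), and Fgfr4 was too low to be tested. In all, 7 of the 8 tested members did not overlap between genotypes, beside 40.3% of all tested genes (17.8% above and 22.5% below).

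Clusters 1, 4 and 6 each held at least 20 cells of every library and were tested alone. No gene at all was called in any of them (0 of 11005, 11166 and 10662 tested genes, 0%; edgeR quasi-likelihood, Benjamini-Hochberg), while 182, 216 and 140 genes had an unadjusted p under 0.05 and DESeq2 called 1, 4 and 0. In cluster 1, the 6 tested members overlapped between genotypes, where 23.1% of tested genes did not (7.99% above and 15.1% below). Fgfr4 had a log2 change of -1.02 ± 0.53 and Fgfr3 of -0.67 ± 0.49 (SE; edgeR adjusted p = 0.9997 for each). Without mutant library 1 both passed, Fgfr4 at -1.69 (edgeR adjusted p = 0.000443) and Fgfr3 at -1.23 (edgeR adjusted p = 0.0122), and without mutant library 2 they were -0.19 and 0.03. The values of these receptors in cluster 1 thus rest on which mutant library is read. The median depth of cluster 1 cells was higher in the libraries numbered 1, as given above, and the part of depth in this was not tested.

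In cluster 4, Fgfr1 stood at 54.0 and 40.7 CPM in mutants, against 33.2 and 28.2 CPM in controls, with both mutant libraries above both controls. The log2 change was 0.69 ± 0.26, with an unadjusted p of 0.0270 and an adjusted p of 0.9999 (SE; edgeR quasi-likelihood). In cluster 6, Fgfr1 stood at 42.5 and 44.7 CPM in mutants, against 48.9 and 48.8 CPM in controls, with a log2 change of -0.03 ± 0.31. Of the members tested, 2 of 6 in cluster 4 (Fgfr1 above, Fgfr4 below) and 1 of 4 in cluster 6 (Fgfr1 below) did not overlap, beside 21.0 and 23.5% of all tested genes. In cluster 4, 7.78% of tested genes lay above and 13.3% below, and in cluster 6, 6.92% above and 16.6% below. Fgfr4 in cluster 4 rested on 0 and 27 UMIs in mutants, against 4 and 20 UMIs in controls. The remaining members of clusters 4 and 6 had log2 changes between -0.46 (Fgf7 in cluster 6) and 0.43 (Fgf10 in cluster 4).

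**Figure D4:**
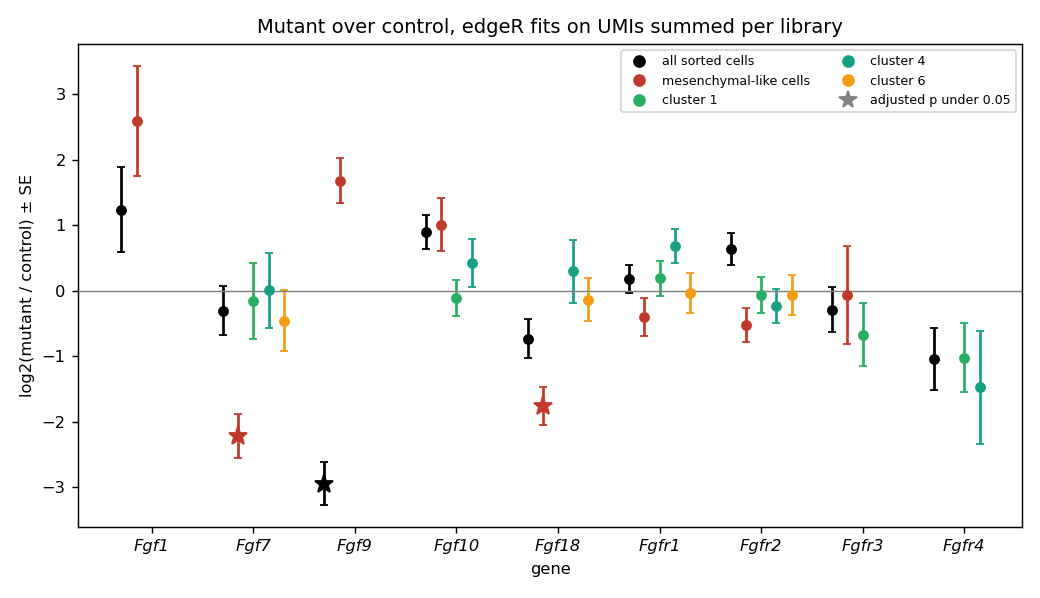
Points are log2 changes of mutant over control from edgeR fits on summed UMIs for each gene, with bars of 1 SE and colours for the cells fitted; stars mark an adjusted p under 0.05 and the line marks 0. Stars stand at Fgf9 over all sorted cells (-2.94) and at Fgf7 (-2.22) and Fgf18 (-1.76) in mesenchymal-like cells.

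Of 93 other genes of the pathway, 79 were tested over all sorted cells, and 0 were called higher and 1 lower. Across all tested genes 0.0185% were called higher and 0.339% lower. The median log2 change of the 79 was 0.08, beside 0.03 over all genes. The gene that fell was Flrt1, which encodes a membrane protein that binds FGF receptors. It stood at 3.72 and 1.60 CPM in mutants, against 39.3 and 28.2 CPM in controls, and fell by 3.67 ± 0.38 (SE; edgeR adjusted p = 0.0318). Of the other ligands, Fgf5 stood at -1.99 on the log2 scale and Fgf11 at 1.20, and neither passed (edgeR adjusted p = 0.337 and 0.373). Of genes that modify heparan sulfate, Sulf1, which removes sulfate groups, had -1.56, and the glypican gene Gpc3 had -1.52 (edgeR adjusted p = 0.224 and 0.197). Of 20 response genes and feedback inhibitors, 13 had a log2 change above 0 and the median was 0.31, with none called. The inhibitor Spry2 had -0.77 (edgeR adjusted p = 0.394), and the growth genes Ccnd1 and Myc had 0.76 and 0.96 (edgeR adjusted p = 0.530 and 0.547).

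In mesenchymal-like cells 74 pathway genes were tested, and 0 were called higher and 2 lower. Across all tested genes 0.445% were called higher and 0.430% lower. The median log2 change of the 74 was 0.05, beside 0.02 over all genes. The glypican gene Gpc6 stood at 18.6 and 26.8 CPM in mutants, against 91.2 and 133 CPM in controls, and fell by 2.21 ± 0.35 (SE; edgeR adjusted p = 0.0393). The sulfatase gene Sulf2 stood at 61.7 and 50.3 CPM in mutants, against 191 and 156 CPM in controls, and fell by 1.54 ± 0.27 (SE; edgeR adjusted p = 0.0443). The inhibitors Spry1 and Spry2 did not pass, at -2.28 and -1.34 (edgeR adjusted p = 0.0501 and 0.122). As for Fgf7 and Fgf18, different clusters made up the class, mostly cluster 3 in mutants and cluster 6 with clusters 11 and 13 in controls. In cluster 6 alone Sulf2 stood at 312 and 205 CPM in mutants, against 246 and 197 CPM in controls.

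Likeness of pattern was described over the 27 cluster and library units with at least 20 cells and the 9926 genes that reached 20 CPM in 1 of them, by Pearson's r of log2(CPM + 1). The units share libraries and depth, so r is a description. Pard6b, Wfdc1 and Gm20186 were most like Fgf9 (r of 0.94 each). Lbh, Adam12 and Sdk2 were most like Fgf10 (0.88, 0.82 and 0.81), and Maob, Rps6ka6 and Pde7a were most like Fgfr2 (0.81, 0.78 and 0.76). Limch1 (0.86), Fgfr4 (0.82) and Cass4 (0.72) were most like Fgfr3. For Fgfr4 the most alike genes were Fgfr3 (0.82), Ablim3 (0.81) and Hsd11b1 (0.81). Units with under 20 cells did not enter r, and in epithelial-like cells the levels of the 2 receptors parted, as given above.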

How the data were processed

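Sorted cells of 2 mutant and 2 control libraries were analysed, grouped by the sample titles. The authors deposited whole-number UMI counts per gene and cell barcode, not normalized, from Cell Ranger 6.0.2 (per the file headers) on mm10 (per the submitters' processing notes). Neither the annotation release nor strand use is given in the sources used here. Of 32285 gene IDs, 32158 matched GENCODE vM21, all 9 members included, and locations are from it.

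Barcodes with at least 1000 genes and at most 15% mitochondrial UMIs were kept. The automatic threshold of Scrublet marked too few doublets to be used, so the highest scores were removed at 0.8% per 1000 barcodes (1 and 157 in mutants, 1 and 104 in controls), leaving 8470 cells. Cells were clustered in scanpy 1.11.5 on 3000 variable genes that excluded the 9 members, with 30 principal components, 15 neighbours and Leiden resolution 0.4. A cluster was called X-like where 3 or more marker genes of 1 type were seen in at least 10% of cells at 2-fold or more over the other clusters' mean. It was called mixed where at least 66% of all markers lay within 2-fold of the other cells of its library (84.8 and 73.4% in clusters 2 and 7), a rule set with the data known.

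CPM and shares carry 95% exact Poisson or binomial intervals, and a count of 0 was read against 3 counts. Summed counts were tested with edgeR 4.0.16 in R 4.3.3 (filterByExpr, TMM, glmQLFit, glmQLFTest; two-sided, threshold 0.05 after Benjamini-Hochberg adjustment over all genes tested). The steps were tested on simulated data. Of simulated 2-fold changes, 24% were recovered over all sorted cells and 22% in mesenchymal-like cells. In clusters 1, 4 and 6, 18, 24 and 12% were recovered, so most changes of that size would be missed. Of 4-fold changes, 94% and 90% were recovered over all sorted and mesenchymal-like cells, and 90, 88 and 72% in clusters 1, 4 and 6. Changes were set only in genes with enough expected UMIs in the smallest library. The recovered shares therefore do not apply to members with few counts, such as Fgfr4 in cluster 4. DESeq2 1.42.0 was an alternative. Other alternatives changed the scaling, filters, doublets, clusters and libraries used. An exact permutation test of 2 libraries against 2 cannot go below p = 0.333, so shares were not tested. Summed counts of the libraries of a genotype differed by more than counting error (chi-square over its degrees of freedom 203 in mutants and 97.4 in controls). Libraries of the same pool that caught other cells could differ so too, so this does not show separate pools.

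The members and the pathway and marker lists were chosen with earlier results of these data known. The text names all members and the 3 genes most like Fgf9, Fgf10, Fgfr2, Fgfr3 and Fgfr4, with Myrf, Upk3b and Wt1 as checks. Of each pathway list it names up to 3 genes with the smallest p over all sorted cells and up to 2 in mesenchymal-like cells. It leaves out some of the pathway genes that did not pass.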

Additional observations from a re-analysis of the deposited data

Results flagged for a closer look

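Fgfr1 lay on opposite sides in clusters 4 and 6, although its log2 change in cluster 6 was small. No member was called in either cluster. In cluster 4 both mutant libraries (54.0 and 40.7 CPM) lay above both controls (33.2 and 28.2 CPM), and in cluster 6 both mutant libraries (42.5 and 44.7 CPM) lay below both controls (48.9 and 48.8 CPM). The change in cluster 4 minus that in cluster 6 was 0.72 on the log2 scale, most of it from cluster 4. With 1 library left out, the change ranged from 0.59 to 0.77 in cluster 4. In cluster 6 it ranged from -0.25 to 0.11, so its direction there was not settled. The difference between the clusters was not tested. In cluster 6 the intervals of counting error overlapped between all 4 libraries, since mutant library 1 rested on 29 Fgfr1 UMIs and control library 1 on 31.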

How the results depend on the processing

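Of 353 alternative values for the members' log2 changes, 313 kept direction and side of the threshold. Fgf9 over all sorted cells was called in each alternative. In mesenchymal-like cells Fgf7 did not pass with doublets kept (-2.12), at equal cell numbers (-1.87), with members eligible as variable genes (-1.80) or with clusters 1 and 4 added (-1.48), and Fgf18 did not pass with doublets kept (-1.72), with members eligible (-0.93), at resolution 0.8 (-1.09) or with clusters 1 and 4 added (-0.69). Fgf10 turned there with members eligible (-0.49), at resolution 0.8 (-0.79) and with clusters 1 and 4 added (-0.13). Some of these settings also changed the cells of the class. With members eligible, the cluster led by Smim41 was named fibroblast-like and entered it. The class then held 334 and 3462 mutant cells and 99 and 481 control cells. At resolution 0.8 it held 288 and 1755 mutant cells and 61 and 412 control cells. These included a fibroblast-like cluster with Tcf21. What these cells add to each change was not tested.

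Genes called over all sorted cells (58) were 493 with DESeq2, 685 without a low-count filter, 37 at equal cell numbers and 118 without epithelial, endothelial and immune cells. Those in mesenchymal-like cells (120) were 357 with DESeq2, 898 without the filter, 39 with doublets kept, 1 with members eligible, 289 at resolution 0.8 and 0 with clusters 1 and 4 added. In clusters 1, 4 and 6 (0 each) they were 24, 39 and 15 without the filter, and DESeq2 called 1 in cluster 1 and 4 in cluster 4.

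The genotypes share only replicate numbers, and replicates 1 minus 2 correlated across genes at r of 0.55 between mutant and control, from only 2 pairs. With the replicate block, 525 genes were called over all sorted cells, 1253 in mesenchymal-like cells and 58, 14 and 8 in clusters 1, 4 and 6. Among members the block called Fgf9 (1.70) and Fgf10 (1.06) higher in mesenchymal-like cells, and turned Fgf7 in cluster 4 (-0.18).

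Leaving out 1 library gave 74 to 1097 called genes over all sorted cells, 322 to 503 in mesenchymal-like cells, and 5 to 446, 4 to 469 and 0 to 347 in clusters 1, 4 and 6. Fgf9 ranged from -3.35 to -2.62 over all sorted cells, and in mesenchymal-like cells Fgf7 ranged from -2.44 to -2.04 and Fgf18 from -1.95 to -1.49. Directions turned over all sorted cells for Fgf7 (-0.64 to 0.088) and Fgfr3 (-0.63 to 0.11), in mesenchymal-like cells for Fgfr1 (-0.63 to 0.023) and Fgfr3 (-0.99 to 0.46), in cluster 1 for Fgf7 (-0.93 to 0.66), Fgf10 (-0.30 to 0.075) and Fgfr3 (-1.23 to 0.029), in cluster 4 for Fgf7 (-0.66 to 0.67), Fgf10 (-0.12 to 0.88) and Fgf18 (-0.40 to 0.86), and in cluster 6 for Fgf7 (-0.997 to 0.0020), Fgf18 (-0.33 to 0.071) and Fgfr1 (-0.25 to 0.11).

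Shares of cells depend on thinning. Without it, cells with an Fgf9 UMI were 34.8 and 19.4% of cluster 3 in mutants and 90.2 and 83.7% of mesothelial-like cells in controls, and cells with an Fgf10 UMI in cluster 1 were 53.3 and 47.1% in mutants and 72.7 and 65.2% in controls. Depth limits the values of clusters with few cells, above all in the libraries numbered 1.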
